A study of Mus musculus with 34 samples.

Results

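Interferons are secreted proteins that bind cell-surface receptors and switch on transcription through JAK kinases. Type I interferons act largely through a DNA element called ISRE, and interferon gamma through an element called GAS. Among the genes switched on are those of the immunoproteasome, a form of the cell's protein-degrading 20S core whose catalytic subunits Psmb8, Psmb9 and Psmb10 take the places of Psmb5, Psmb6 and Psmb7 and cut peptides suited to MHC class I. In obese fat, interferon gamma made by T and NK cells is known to act on macrophages and adipocytes.

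The 8 genes described are these 3 inducible subunits, together with Tap1 (a subunit of the peptide transporter of the endoplasmic reticulum), Bst2 (tetherin, a membrane protein that holds back budding viruses), Ifit3 (a cytoplasmic antiviral protein), Irf7 (the transcription factor that amplifies type I interferon production) and Isg15 (a ubiquitin-like modifier). They were picked by gene symbol and make up 8 of the 15145 genes in the adipose count table and 8 of the 13238 in the heart table. All 8 passed the filter on low counts in both tissues. Their values come from RNA sequencing of adipose tissue and heart of C57BL/6J mice on 1 of 3 diets. The control diet gave 10% of its calories as fat (mice aged 20 or 21 months). The high-fat, high-calorie diet (HFCD) gave 60% (20 to 22 months). HFCD+FMD mice (20 or 21 months) ate the same HFCD but spent 5 days of every 4 weeks on a fasting mimicking diet (FMD), which from cycle 6 onward was followed by 2 days of control diet. Tissue was taken after 11 cycles, 4 days after the last FMD ended. The labels name no genetic change, no sex and no fat depot. Adipose libraries numbered 3 on control diet, 4 on HFCD and 6 on HFCD+FMD, and heart libraries 5, 5 and 4.

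The libraries held 15604982 to 40831656 counts in adipose tissue and 16848195 to 47859170 in heart. Summed levels of 8 adipocyte markers (17814 to 46524 CPM, which scales the counts of every library to 1 shared total) and of 8 cardiomyocyte markers (30754 to 63360 CPM) matched the labelled tissues. In adipose tissue the mitochondrial share of counts separated the diets: it was 29.3%, 17% and 12.6% in control replicates 1, 3 and 5, against 2.17% to 6.08% on HFCD and 2.20% to 7.47% under HFCD+FMD. Control replicate 1 also had the fewest counts. In heart 4 libraries had over 50% mitochondrial counts: HFCD replicates 3 (71.5%) and 5 (59.8%) and HFCD+FMD replicates 3 (62.0%) and 5 (61.4%). The heart libraries fell into 3 sets that the authors' own values treat separately and that are unevenly spread over the diets. Replicate numbers only name libraries.

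The genes sit at 6 places in the genome (GRCm38). Psmb9 (chr17:34181987-34187764, minus strand), Tap1 (chr17:34187553-34197225, plus strand) and Psmb8 (chr17:34197721-34201454, plus strand) lie side by side in the MHC region. The RefSeq starts of Psmb9 and Tap1 are 226 bases apart and point away from each other. Psmb10 (chr8:105935735-105938444) and Bst2 (chr8:71534255-71537456) are on the minus strand of chromosome 8. Ifit3 lies at chr19:34583531-34588731 on the plus strand, and Irf7 (chr7:141262706-141266481) and Isg15 (chr4:156199424-156200818) lie on minus strands. Whether reads were counted by strand is not given in the sources used here, and exons on opposite strands share bases for Psmb9 and Tap1 (212 bases), Psmb8 and Gm20496 (498 bases, 14.7% of the exon bases of Psmb8) and Irf7 and Phrf1 (45 bases). Ifit3 is 98.0% identical to its neighbour Ifit3b over 1697 aligned transcript bases, so counts of Ifit3 are uncertain where reads could be split between the copies.

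The 250 bases before the RefSeq start of each gene (GRCm38.p6 table) were searched on both strands for the ISRE core (GAAA, any 2 bases, GAAA) and the GAS core (TTC, any 3 bases, GAA). The windows shown are the 3 with an ISRE core, none of which overlaps an annotated exon. Capitals mark the motif bases, and each run is read 5′ to 3′ on the gene's own strand, from chr8:71537473-71537722 (minus strand), chr19:34583279-34583528 (plus strand) and chr4:156200819-156201068 (minus strand).
Bst2: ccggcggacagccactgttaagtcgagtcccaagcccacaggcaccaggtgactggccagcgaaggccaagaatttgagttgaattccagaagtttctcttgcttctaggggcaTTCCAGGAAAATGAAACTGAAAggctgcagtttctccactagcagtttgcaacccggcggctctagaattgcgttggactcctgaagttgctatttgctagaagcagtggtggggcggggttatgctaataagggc
Ifit3: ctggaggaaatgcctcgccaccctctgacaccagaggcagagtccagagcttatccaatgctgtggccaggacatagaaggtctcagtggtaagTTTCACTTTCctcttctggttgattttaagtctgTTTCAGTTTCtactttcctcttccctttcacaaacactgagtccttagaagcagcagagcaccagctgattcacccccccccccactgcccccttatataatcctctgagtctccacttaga
Isg15: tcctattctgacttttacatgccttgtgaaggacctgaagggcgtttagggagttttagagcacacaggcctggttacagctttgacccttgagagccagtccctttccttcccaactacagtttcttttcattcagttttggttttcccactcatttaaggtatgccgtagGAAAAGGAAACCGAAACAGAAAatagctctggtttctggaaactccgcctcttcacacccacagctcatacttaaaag

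Bst2 had overlapping ISRE cores at positions -130 to -121 and -124 to -115 (the last base before the start is -1) and a GAS core at -136 to -128 that overlaps the first of them. Ifit3 had ISRE cores on the opposite strand at -156 to -147 and -122 to -113. Isg15 had 3 ISRE cores that overlap end to end, from -78 to -57. The only other match was a GAS core at -97 to -89 of Psmb8. An ISRE core was thus present in 3 of 8 windows, against 2.97% of 32817 RefSeq promoters of the same length, and a GAS core in 2 of 8 against 7.01%. The windows of Psmb8, Psmb9 and Tap1 lie wholly within annotated exons (250 of 250 bases), and those of Psmb10 and Irf7 in part (52 and 57 bases). The 8 windows are thus not alike, and a missing match says nothing about sequence outside them. A match describes these letters only and does not show that a factor binds there.

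The first comparison asked what the high-fat diet changed in adipose tissue. Under HFCD 4 of the 8 genes rose against control, by 1.5-fold to 2.22-fold, and none fell: Psmb8, Psmb10, Tap1 and Bst2. Of all 15112 genes tested, 30.0% passed the same test (adjusted p below 0.05, Benjamini-Hochberg over all genes tested), 15.7% as higher and 14.2% as lower. Psmb9, Ifit3, Irf7 and Isg15 did not pass. Every control library had a higher mitochondrial share than every HFCD and HFCD+FMD library, and the part of this in the differences from control was not tested. The median log2 fold change of the 8 genes was 0.63, and that of all genes 0.00.

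Psmb8, which replaces the subunit with chymotrypsin-like activity, stood at 32.2, 30.8 and 31.3 TMM-scaled CPM in control replicates 1, 3 and 5. It stood at 52.6, 90.8, 46.4 and 55.6 CPM in HFCD replicates 1 to 4. Every HFCD library lay above every control library, with replicate 2 far above the other HFCD libraries. The log2 fold change was 0.97 (SE 0.23, edgeR adjusted p = 0.0093), a 1.95-fold rise. Psmb8 passed in each of the 13 fits that left out 1 library.

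Psmb9 takes the place of the caspase-like subunit. Its levels were 20.5, 11.2 and 15.3 CPM on control diet and 23, 40.1, 16.8 and 19 CPM on HFCD. The groups overlapped and the log2 fold change of 0.67 (SE 0.30) missed the threshold (adjusted p = 0.107). Psmb10, which replaces the trypsin-like subunit, stood at 36.6, 23.3 and 28.1 CPM on control diet and 43.1, 59.4, 35.7 and 37 CPM on HFCD. Only control replicate 1, at 36.6 CPM, overlapped the HFCD range. Psmb10 rose by 0.58 on the log2 scale (SE 0.19, adjusted p = 0.0343). That call was lost without control replicate 3 or 5 or without HFCD replicate 1 or 2 (highest adjusted p = 0.149).

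Tap1 stood at 37.3, 25.2 and 28.1 CPM on control diet and 42.1, 80.8, 35.7 and 51.2 CPM on HFCD. HFCD replicate 2 was again highest, and replicate 3 lay below control replicate 1. The log2 fold change was 0.80 (SE 0.26, adjusted p = 0.0335), and the call was lost without control replicate 3 or 5 or without HFCD replicate 2 or 4 (highest adjusted p = 0.124). Bst2 stood at 20.9, 16.2 and 18.3 CPM on control diet and 40.7, 61.9, 23 and 38 CPM on HFCD, with no overlap. Its log2 fold change was 1.15 (SE 0.31, adjusted p = 0.0156), the highest of the 8. It ran from 0.88 to 1.35 over the 13 fits that left out 1 library. The call was lost only without control replicate 3 (adjusted p = 0.0611). Psmb8 and Bst2 were thus the 2 of 8 genes whose HFCD libraries all lay above the controls, against 20.6% of all genes tested.

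Ifit3 and Irf7 spread more between HFCD libraries than the other members. Their coefficients of variation (SD over mean) were 62.4% and 75.8%, against at most 42.8% (Psmb9) in the others, with Isg15 at 38.1%. Ifit3 stood at 21.3, 43.6 and 27.3 CPM on control diet and 17.9, 28, 22.7 and 63.2 CPM on HFCD. Irf7 stood at 25.1, 47.7 and 36 CPM on control diet and 24.5, 49.6, 26.7 and 110 CPM on HFCD. In both genes HFCD replicate 4 stood far above the other HFCD libraries, and control replicate 3 was the highest of the controls. The log2 fold changes were 0.09 (SE 0.57, adjusted p = 0.914) for Ifit3 and 0.53 (SE 0.58, adjusted p = 0.508) for Irf7. Isg15 was the scarcest in CPM, at 5.91, 5.51 and 4.87 on control diet and 6.45, 8.65, 4.61 and 11.5 on HFCD. Its log2 fold change was 0.53 (SE 0.50, adjusted p = 0.450).

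**Figure D1:**
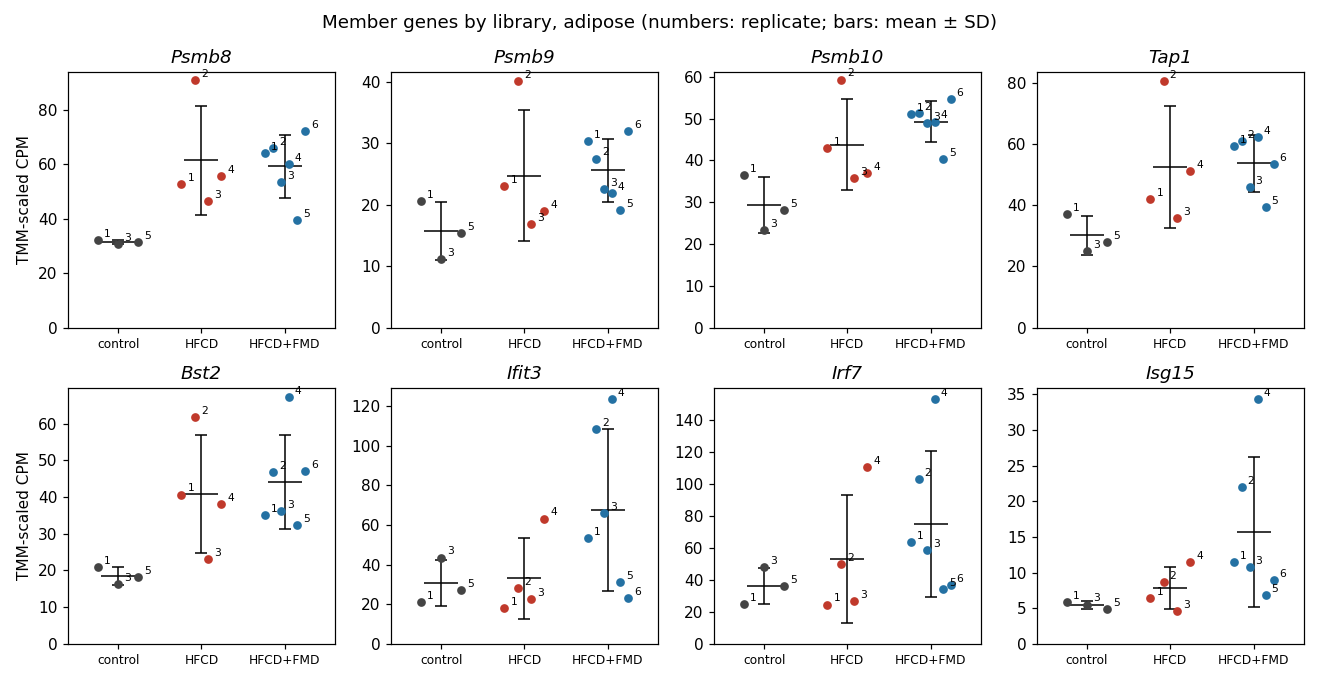
TMM-scaled CPM (y axis, from 0) of each gene in every adipose library by diet (x axis); points are libraries numbered by replicate, and bars give the mean and SD of 3, 4 and 6 libraries. Psmb8 lies between 30.8 and 32.2 in the controls and at or above 39.6 in all libraries of the other diets, while Irf7 ranges from 24.5 to 153 with wide overlap.

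The second comparison asked what the fasting cycles changed in adipose tissue of mice on the same HFCD. None of the 8 genes passed between HFCD+FMD and HFCD (0.205% of all genes tested passed in edgeR). At an unadjusted p below 0.05, 1 member (Isg15) and 11.2% of all genes were counted, and DESeq2 also called 0 of the 8 genes. The 5 genes Psmb8, Psmb9, Psmb10, Tap1 and Bst2 differed by -0.05 to 0.17 on the log2 scale. Their 95% intervals lay between -0.44 and 0.60, so differences of that size in either direction remain possible.

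Psmb8 under HFCD+FMD ran from 39.6 to 72.1 CPM with a median of 62.0. Psmb9 ran from 19.2 to 31.9 CPM (median 25) and Psmb10 from 40.3 to 54.7 CPM (median 50.3). Tap1 ran from 39.6 to 62.4 CPM (median 56.6) and Bst2 from 32.4 to 67.2 CPM (median 41.4). In all 5 genes these ranges overlapped those of HFCD, and HFCD replicate 2 lay above every HFCD+FMD library for all of them but Bst2.

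Ifit3 ran from 22.9 to 124 CPM under HFCD+FMD (median 59.7), Irf7 from 34.1 to 153 CPM (median 61.2) and Isg15 from 6.89 to 34.4 CPM (median 11.1). HFCD+FMD replicates 4 and 2 were the 2 highest in Ifit3 and Isg15, whereas replicates 1, 5 and 6 lay within the HFCD range in all 3 genes. The log2 fold changes against HFCD were 1.04 for Ifit3 (SE 0.49, adjusted p = 0.451), 0.51 for Irf7 (SE 0.49, adjusted p = 0.733) and 1.01 for Isg15 (SE 0.42, adjusted p = 0.398). Under HFCD+FMD the coefficient of variation was 66.9% for Isg15, 60.8% for Irf7 and 60.4% for Ifit3. In the other members it ran from 9.88% (Psmb10) to 29.2% (Bst2). On HFCD it was 38.1% for Isg15, 75.8% for Irf7 and 62.4% for Ifit3, and 24.8% (Psmb10) to 42.8% (Psmb9) in the others.

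Against control, 5 of 8 genes rose under HFCD+FMD, where 10.5% of all genes tested rose and 19.7% passed in either direction. This comparison uses the same 3 control libraries as the first, and their higher mitochondrial share moves with it too. The log2 fold changes were 0.91 for Psmb8 (SE 0.22, adjusted p = 0.0154), 0.75 for Psmb10 (SE 0.18, adjusted p = 0.0150), 0.84 for Tap1 (SE 0.24, adjusted p = 0.0317), 1.26 for Bst2 (SE 0.30, adjusted p = 0.0145) and 1.54 for Isg15 (SE 0.49, adjusted p = 0.0440). Each of these 5 genes was higher in all 6 HFCD+FMD libraries than in any control library, which 10.5% of all genes tested were. Psmb9 (log2 fold change 0.71, adjusted p = 0.0881), Ifit3 (1.13, adjusted p = 0.155) and Irf7 (1.04, adjusted p = 0.198) did not pass. The count of 5 fell to 1 without control replicate 1, the library with 29.3% mitochondrial counts, to 0 without control replicate 3 and to 3 without control replicate 5. It was also 3 without HFCD+FMD replicate 2 or 4. Over the 13 fits that left out 1 library, Isg15 passed in only 6 and Tap1 in 7. Psmb8 and Bst2 passed in 11 each and Psmb10 in 12. Under HFCD against control the count of 4 stayed at 4 without control replicate 1, and was 1 without control replicate 3 and 2 without control replicate 5 or HFCD replicate 2.

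**Figure D2:**
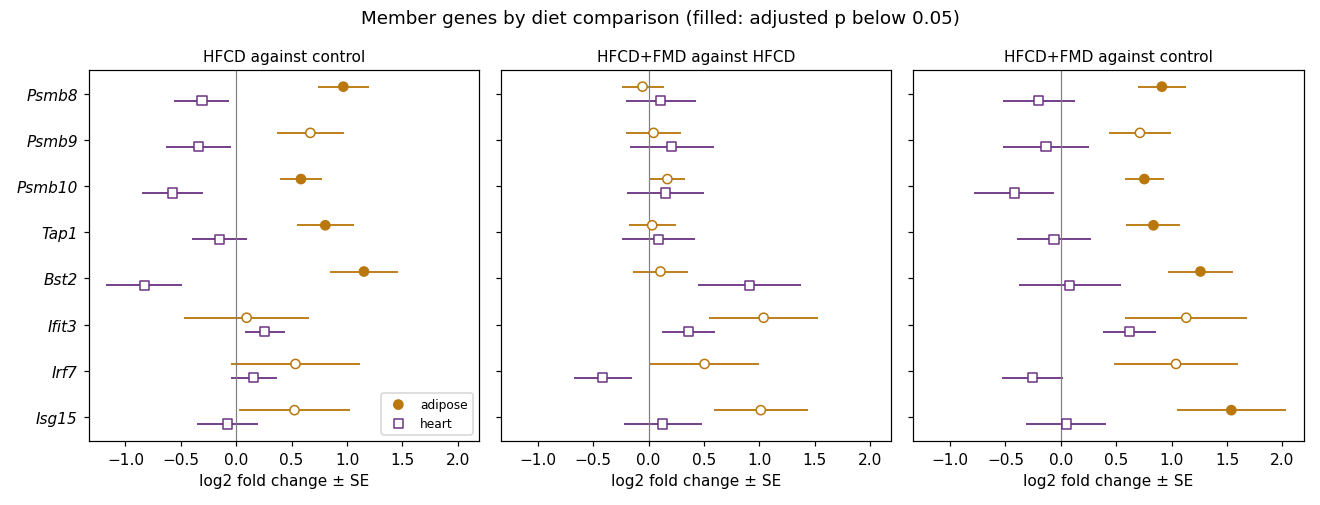
Log2 fold change (x axis) with its SE of each gene (y axis) in the 3 diet comparisons (panels), from edgeR; circles are adipose tissue, squares heart, and filled symbols have an adjusted p below 0.05. In adipose tissue 4 genes are filled for HFCD against control and 5 for HFCD+FMD against control, and no heart symbol is filled.

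Levels of different genes were set side by side per kilobase of exon, with all annotated exons of a gene merged. A gene with many annotated exons is thus divided by a long length (Psmb9 3660 bases from 19 distinct exons, Bst2 903 bases from 7). The order of the genes depends on these lengths. On this scale Bst2 was highest in adipose tissue in all 3 diets, at 20.4 ± 2.6, 45.3 ± 17.7 and 48.9 ± 14.3 CPM per kilobase (SD) on control, HFCD and HFCD+FMD. Psmb9 was lowest, at 4.28 ± 1.28, 6.76 ± 2.89 and 6.98 ± 1.39. On control diet the order was Bst2, Ifit3 (17.6 ± 6.6), Psmb10 (17.2 ± 3.9), Irf7 (9.61 ± 3.00), Psmb8 (9.30 ± 0.22), Isg15 (7.18 ± 0.69), Tap1 (5.51 ± 1.16) and Psmb9. Each neighbour pair in that order differed by less than 1 SD of the more variable gene, except Psmb10 and Irf7, Psmb8 and Isg15, and Isg15 and Tap1.

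Setting each inducible subunit against the subunit whose place it takes removes library scaling. The ratio of Psmb8 to Psmb5, per kilobase, was 0.459, 0.630 and 0.713 in the adipose controls and 1.09, 1.93, 1.39 and 1.71 on HFCD. Under HFCD+FMD it ran from 0.958 to 1.81 (median 1.21). On merged exon lengths Psmb8 gave fewer reads per kilobase than Psmb5 in every control library and more in every HFCD library. Where the ratio stands against 1 depends on those lengths, whereas the differences between libraries do not. The ratio of Psmb9 to Psmb6 was 0.0821, 0.0584 and 0.0919 on control diet, 0.159, 0.293, 0.0997 and 0.113 on HFCD and 0.115 to 0.207 (median 0.144) under HFCD+FMD. The ratio of Psmb10 to Psmb7 was 0.742, 0.478 and 0.649 on control diet, 0.977, 1.30, 1.14 and 1.18 on HFCD and 1.02 to 1.67 (median 1.19) under HFCD+FMD. For all 3 pairs, every library on HFCD or HFCD+FMD lay above every control library.

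On the log2 scale the ratios were higher on HFCD than on control by 1.34 (Psmb8 to Psmb5), 0.99 (Psmb9 to Psmb6) and 0.90 (Psmb10 to Psmb7). The two-sided exact permutation p was 0.0571 for each, the smallest that 4 libraries against 3 allow. For HFCD+FMD against control the differences were 1.11, 0.97 and 1.03, each with the smallest possible exact p of 0.0238. For HFCD+FMD against HFCD they were -0.23, -0.02 and 0.13 (exact permutation p = 0.333, 0.933 and 0.438). None of the 18 tests of the family passed after Benjamini-Hochberg adjustment, where the lowest adjusted p was 0.143.

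**Figure D3:**
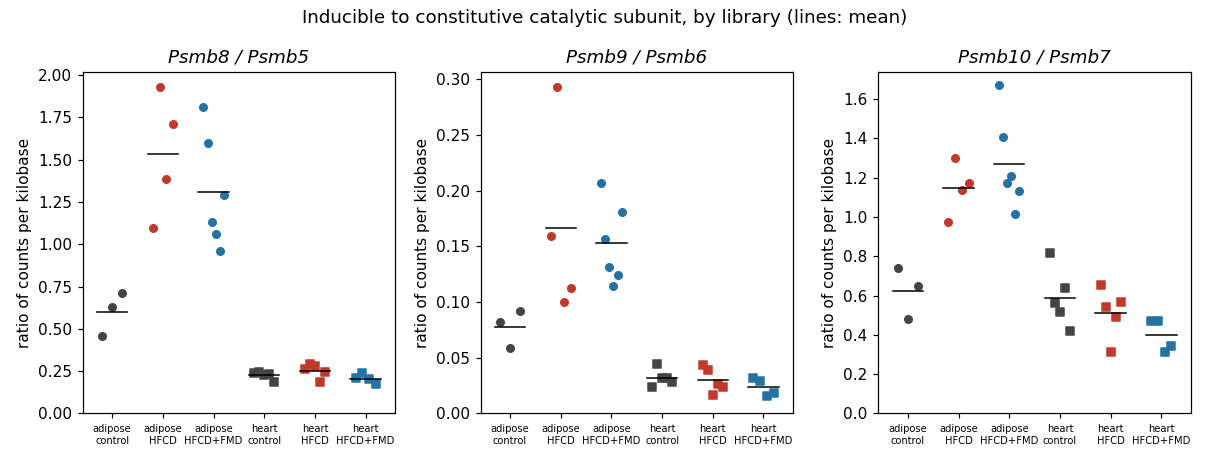
Ratio of counts per kilobase of exon (y axis, from 0) of Psmb8 to Psmb5, Psmb9 to Psmb6 and Psmb10 to Psmb7 in every library, by tissue and diet (x axis); points are libraries and lines are means. In adipose tissue all libraries on either high-fat diet lie above the controls, and the heart libraries overlap between diets.

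The constitutive subunits themselves did not pass in adipose tissue. Of all genes tested there, 15.7% rose and 14.2% fell on HFCD against control. On HFCD against control Psmb5 stood at 10.7 ± 2.3 against 14.4 ± 3.7 CPM (log2 fold change -0.42, adjusted p = 0.159), Psmb6 at 79.0 ± 8.3 against 103.6 ± 21.8 CPM (-0.39, adjusted p = 0.0527) and Psmb7 at 76.6 ± 15.6 against 94.5 ± 6.6 CPM (-0.30, adjusted p = 0.186). Among 11 other subunits of the 20S core, 0 rose and 2 fell on HFCD against control: Psma3 (log2 fold change -0.59, adjusted p = 0.00868) and Psma4 (-0.43, adjusted p = 0.0213). Of 18 subunits of the 19S particle, which recognises and unfolds tagged proteins, 0 rose and 4 fell, led by Psmd11 (-0.58, adjusted p = 0.00457). Of 9 activator and assembly genes, 0 rose and 2 fell: Psmg1 (-0.72, adjusted p = 0.00194) and Psmg2 (-0.48, adjusted p = 0.0290), chaperones that assemble the core. Psme1 and Psme2, the PA28 activator subunits that interferon gamma induces, did not pass (-0.39, adjusted p = 0.261, and 0.24, adjusted p = 0.505). The medians of these 4 lists were -0.39, -0.21, -0.21 and -0.29, against 0.00 for all genes, and for HFCD+FMD against control -0.25, -0.22, -0.14 and -0.22.

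Genes for peptide loading and MHC class I had a median log2 fold change of 0.45 on HFCD against control. Of these 17 genes 2 rose, where 15.7% of all genes tested rose. They were H2-M3 (1.21, adjusted p = 0.00668) and H2-T23 (0.90, adjusted p = 0.0130), both nonclassical class I molecules. Tap2, the partner of Tap1 in the transporter, stood at 64.2 ± 14.8 against 47.1 ± 7.9 CPM (0.45, adjusted p = 0.0549) and rose under HFCD+FMD against control (0.59, adjusted p = 0.0217), as did Tapbpl, a peptide editor (0.60, adjusted p = 0.00996). B2m, the light chain of class I molecules, stood lower on both high-fat diets without passing (4387 ± 2066 and 4359 ± 1817 against 6676 ± 839 CPM).

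Upstream in the pathway, none of 10 interferon genes, Ifnb1 and Ifng among them, passed the filter on low counts in either tissue. The counts that follow are for adipose tissue, where 15.7% of all genes tested rose and 14.2% fell on HFCD against control. Of 12 receptor and signalling genes 3 rose on HFCD against control: Ifnar1, a chain of the type I receptor (0.61, adjusted p = 0.00874), Il10rb, a chain of the lambda interferon and interleukin 10 receptors (0.84, adjusted p = 0.00930), and Tyk2, a JAK kinase (0.58, adjusted p = 0.0144). Irf9 (0.28, adjusted p = 0.356), which helps carry the type I signal to the DNA and is itself induced by it, did not pass. Among 7 other interferon regulatory factors, Irf8 rose most on HFCD against control, from 12.4 ± 4.6 to 58.0 ± 12.7 CPM (2.21, adjusted p = 0.000450), and Irf5 (1.83, adjusted p = 0.00848) and Irf1 (0.73, adjusted p = 0.00969) rose too. Irf8 and Irf5 are abundant in macrophages. Irf4, which represses lipogenesis and drives lipolysis genes in adipocytes, fell (-2.08, adjusted p = 0.00869). Of 15 nucleic acid sensors and adaptors 6 rose and 1 fell, with Adar (0.83, adjusted p = 0.00607), Myd88 (0.79, adjusted p = 0.0112), Tlr9 (1.82, adjusted p = 0.0201) and Tlr7 (1.87, adjusted p = 0.0333) having the smallest p.

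For the next lists, 15.7% of all genes tested rose and 14.2% fell on HFCD against control, and 10.5% rose under HFCD+FMD against control. Among 39 other type I interferon-induced genes, 3 rose and 2 fell on HFCD against control, with a median of 0.26. Oas1a, an antiviral nucleotide synthetase (1.73, adjusted p = 0.0215), and Ifi27l2a (0.88, adjusted p = 0.0271) were among those that rose, and Ifi27 (-0.96, adjusted p = 0.0179) and Isg20, an exonuclease (-0.82, adjusted p = 0.0214), fell. Under HFCD+FMD against control 6 rose and 0 fell, with a median of 0.54, led by Ifi35 (0.71, adjusted p = 0.0114), Parp14 (1.08, adjusted p = 0.0180), Oas1a (1.92, adjusted p = 0.0186) and Rsad2, the antiviral enzyme viperin (1.64, adjusted p = 0.0370). Under HFCD+FMD against HFCD 0 of 39 passed, 32 had a positive log2 fold change, and the median was 0.25 against 0.01 for all genes. Ifit3b, the near copy of Ifit3, stood at 7.19 ± 2.24, 9.40 ± 2.88 and 19.8 ± 10.9 CPM on control, HFCD and HFCD+FMD (HFCD+FMD against HFCD 1.08, adjusted p = 0.324). Of 19 interferon-gamma-induced GTPases and chemokines 1 rose on HFCD against control (Ifi47, 1.25, adjusted p = 0.0430) and 2 rose under HFCD+FMD against control: Gbp5 (1.16, adjusted p = 0.0134) and Ifi47 (1.34, adjusted p = 0.0381). Of the 4 genes that attach or remove Isg15, none passed on HFCD against control, and Ube2l6, its conjugating enzyme, rose under HFCD+FMD against control (0.77, adjusted p = 0.0193). Of 4 negative regulators, Socs1 and Socs3 among them, 0 passed in any diet comparison.

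Markers of several cell types moved with these genes, and the immune lists did not move as one. The shares of all genes tested were 15.7% higher and 14.2% lower on HFCD against control, and 10.5% higher under HFCD+FMD against control. Of 12 macrophage markers 9 rose on HFCD against control and 3 under HFCD+FMD against control, and their summed level ran from 435 to 2325 CPM on control diet, 3064 to 6346 on HFCD and 1683 to 4608 under HFCD+FMD. Of 6 NK cell markers tested 4 rose in each of these comparisons (Gzma, Prf1, Ncr1 and Klre1), from a summed level of 2.44 to 4.26 CPM on control diet to 5.46 to 19.9 on HFCD and 5.25 to 16.9 under HFCD+FMD. HFCD replicate 2, the highest library for Psmb8, Psmb9, Psmb10 and Tap1, was also the highest for the NK cell markers (19.9 CPM), while the macrophage markers were highest in HFCD replicate 4 (6346 CPM). T cell markers ran from 50.7 to 61.0 CPM on control diet, 36.1 to 51.9 on HFCD and 32.3 to 74.9 under HFCD+FMD, with 0 of 10 rising and 1 falling in each comparison with control. Of 7 B cell markers 0 rose and 1 fell on HFCD against control (median log2 fold change -1.40), and of 7 conventional dendritic cell markers 2 rose and 0 fell (median 1.18). Of 6 markers of plasmacytoid dendritic cells, which make much type I interferon, 4 were tested, 0 rose (1 fell under HFCD+FMD against control), and Ccr9 and Klk1 were too low to test. Of 7 endothelial markers 3 rose on HFCD and 5 under HFCD+FMD against control (833 to 981, 1229 to 1431 and 1162 to 2342 CPM). Of 8 fibroblast and progenitor markers 4 rose in each of these comparisons. Of 8 adipocyte markers 4 fell and 1 rose on HFCD against control, and their summed level ran from 29138 to 46524 CPM on control diet, 22528 to 26943 on HFCD and 17814 to 24885 under HFCD+FMD. Of 7 markers of mesothelium, the lining of the body cavity, 6 fell on HFCD against control (median -2.12) and 0 passed under HFCD+FMD against control (median -1.12). The part of these cells in the results was not tested, and in bulk tissue a change in the number of cells of a type cannot be told apart from a change in RNA per cell.

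Across the 13 adipose libraries the genes fell into 2 groups, separated after their values were seen. Between Psmb8, Psmb9, Psmb10, Tap1 and Bst2 the Pearson r of log2 CPM ran from 0.79 to 0.94 over 10 pairs (median 0.90). Between Ifit3, Irf7 and Isg15 it ran from 0.86 to 0.94, and between the groups from 0.04 to 0.75 (median 0.42). With each diet's mean subtracted the ranges were 0.62 to 0.96, 0.82 to 0.95 and -0.26 to 0.70. These correlations are descriptions over libraries that also share depth, cell makeup and diet. The 2 groups peaked in different libraries: HFCD replicate 2 was highest for Psmb8, Psmb9, Psmb10 and Tap1, and HFCD+FMD replicate 4 for Ifit3, Irf7 and Isg15, and also for Bst2. Among the genes whose levels followed the mean of the 8 most closely over the 13 libraries were Rcsd1 (r = 0.96), Ifi35 (0.94), Irgm1 (0.94) and Ifi47 (0.92).

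**Figure D4:**
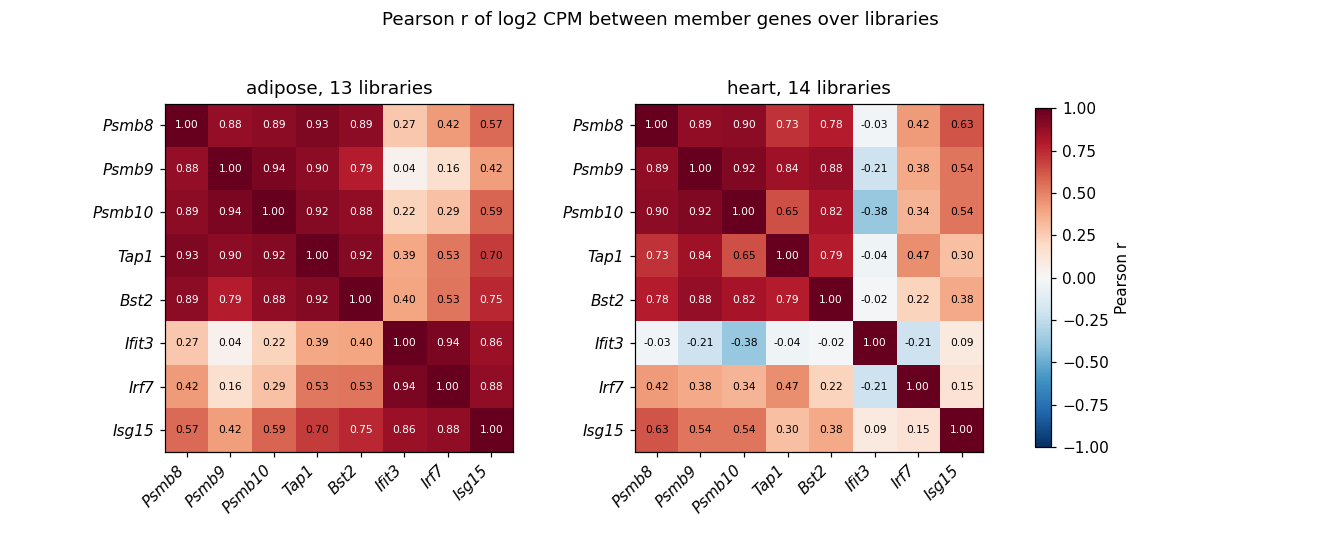
Pearson r between each pair of the 8 genes (rows and columns) of log2 CPM over the 13 adipose (left) and 14 heart libraries (right, after the 3 library sets were taken out); red is positive, blue negative. In adipose tissue the first 5 genes form one block (0.79 to 0.94) and the last 3 another (0.86 to 0.94), and in heart only the first block is seen (0.65 to 0.92).

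In heart none of the 8 genes passed in any diet comparison. With the 3 library sets in the model, edgeR called 0 of 13230 genes on HFCD against control (0% of genes, and 12.8% or 1687 genes at an unadjusted p below 0.05), 0.106% for HFCD+FMD against HFCD and 0.0227% for HFCD+FMD against control. DESeq2 called 61 genes on HFCD against control and 0 of the 8. At an unadjusted p below 0.05 stood Bst2 on HFCD against control and Ifit3 for HFCD+FMD against control (9.48% of all genes in the latter).

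Psmb8 ran from 7.02 to 14.3 CPM on control diet, 5.47 to 9.94 on HFCD and 4.59 to 9.75 under HFCD+FMD in heart. Psmb9 ran from 3.03 to 5.81, 1.59 to 5.05 and 2.14 to 4.14 CPM, and Psmb10 from 15.1 to 34.6, 7.70 to 20.0 and 9.89 to 18.8 CPM. Tap1 ran from 5.47 to 9.99, 4.56 to 12.1 and 4.27 to 6.44 CPM. All these ranges overlap, and the log2 fold changes on HFCD against control were -0.31 (SE 0.25), -0.34 (SE 0.29), -0.57 (SE 0.28) and -0.15 (SE 0.25).

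Bst2 stood at 14.6, 11.2, 11.2, 12.4 and 6.06 CPM in control replicates 2 to 6 and at 9.74, 9.27, 2.54, 6.19 and 2.63 CPM in HFCD replicates 1 to 5. HFCD+FMD replicates 1, 2, 3 and 5 stood at 9.50, 7.05, 4.17 and 2.89 CPM. Only control replicate 6 reached into the HFCD range (log2 fold change -0.83, SE 0.34, adjusted p = 0.377). The 4 lowest libraries for Bst2 were the 4 with over 50% mitochondrial counts, as they were for Psmb9, Psmb10 and Tap1. HFCD replicates 3 and 5, which are among these 4, also stood apart in the summed level of atrial muscle markers, at 677 and 2984 CPM against 6.7 to 125 CPM in the other 12 heart libraries. The part of the mitochondrial share and of atrial tissue in the heart values was not tested. Without those 4 libraries Bst2 differed by -0.61 on HFCD against control (adjusted p = 0.422) and again 0 of the 8 genes passed in any heart comparison.

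Irf7 stood at 11.6, 13.7, 10.5, 14.5 and 7.61 CPM on control diet, 15, 17.3, 9.36, 14.1 and 10.3 CPM on HFCD, and 8.82, 6.80, 8.82 and 5.03 CPM under HFCD+FMD. In CPM, from which the sets are not taken out, all 4 HFCD+FMD libraries lay below all 5 HFCD libraries, which 2.06% of all genes did. In the deposited log2 values, which lack the set term, the groups overlapped. There HFCD replicate 3 (2.81) lay below HFCD+FMD replicates 1 (3.15), 2 (2.95) and 3 (3.32). With the sets in the model the log2 fold change was -0.41 (SE 0.26, adjusted p = 0.651). Ifit3 ran from 3.86 to 7.46 CPM on control diet, 4.49 to 9.92 on HFCD and 4.37 to 6.79 under HFCD+FMD, and its log2 fold change for HFCD+FMD against control was 0.62 (SE 0.24, adjusted p = 0.423). Isg15 was scarce at 1.02 to 2.53 CPM over all heart libraries (19 to 111 counts).

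Without the set factor the log2 fold change of Bst2 for HFCD+FMD against control in heart was -0.91 (adjusted p = 0.222), and with it 0.08, so its direction rests on how the sets are treated. Likewise 7 of the 8 genes, all but Irf7, changed sign for HFCD+FMD against HFCD between these fits, and none passed in either.

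**Figure D5:**
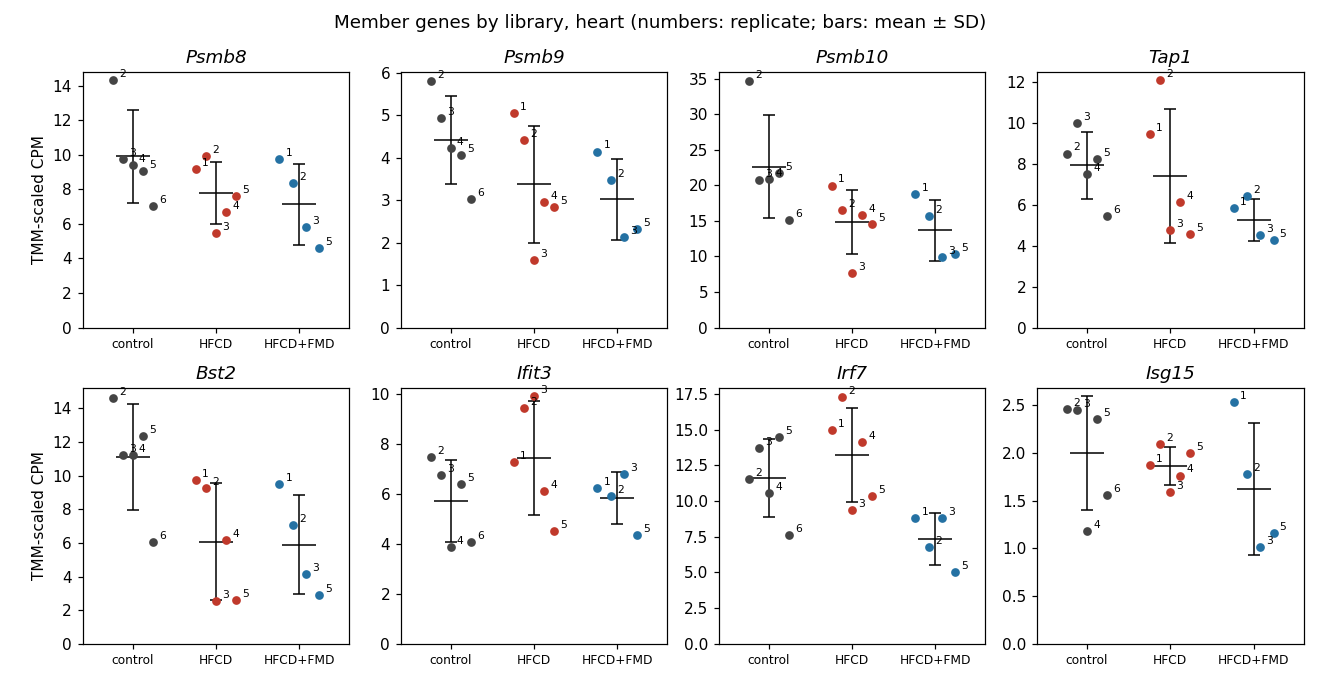
TMM-scaled CPM (y axis, from 0) of each gene in every heart library by diet (x axis); points are libraries numbered by replicate, and bars give the mean and SD of 5, 5 and 4 libraries. Bst2 lies between 6.06 and 14.6 in the controls and between 2.54 and 9.74 on HFCD, and Irf7 under HFCD+FMD stays at or below 8.82.

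Per kilobase of exon, Psmb10 (13.3 ± 4.2 CPM per kilobase) and Bst2 (12.3 ± 3.5) were the highest in control hearts and did not differ beyond their spread. The others ran from 3.27 ± 0.94 (Ifit3) to 1.21 ± 0.28 (Psmb9). On the same merged exon lengths the ratio of Psmb8 to Psmb5 stayed under 1 in heart. It ran from 0.187 to 0.246 on control diet, 0.183 to 0.295 on HFCD and 0.173 to 0.237 under HFCD+FMD. Psmb9 to Psmb6 ran from 0.0240 to 0.0441, 0.0167 to 0.0435 and 0.0159 to 0.0319. Psmb10 to Psmb7 ran from 0.419 to 0.816, 0.313 to 0.652 and 0.315 to 0.473. The log2 ratios on HFCD minus control were 0.15, -0.15 and -0.21 (exact permutation p = 0.302, 0.635 and 0.429), and within the 1 library set that holds 3 control and 4 HFCD libraries 0.08, -0.14 and -0.46 (exact permutation p = 0.800, 0.743 and 0.171).

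None of the other interferon or proteasome lists had a gene that passed in heart, where at most 0.106% of all genes did in a diet comparison. Tap2 stood at 21.0 ± 2.7, 16.2 ± 3.9 and 14.8 ± 5.8 CPM on control, HFCD and HFCD+FMD. Macrophage markers summed to 207 to 328 CPM on control diet, 211 to 538 on HFCD and 213 to 333 under HFCD+FMD, and no NK or B cell marker (7 each) passed the filter on low counts. The block of Psmb8, Psmb9, Psmb10, Tap1 and Bst2 was present in heart too (r from 0.65 to 0.92 over 14 libraries), whereas r between Ifit3, Irf7 and Isg15 ran from -0.21 to 0.15. Diet means were not subtracted here. In CPM the 4 libraries with over 50% mitochondrial counts were the lowest for Psmb9, Psmb10, Tap1 and Bst2. The part of the mitochondrial share in these correlations was not tested. The genes most like the mean of the 8 in heart were Tap2 (r = 0.94), Hyal2 (0.94), Adora2a (0.93), Mxd4 (0.93) and Slc41a3 (0.92).

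The change on HFCD against control was higher in adipose tissue than in heart for 3 of the 8 genes (the other 5 did not pass), where 9.42% of 12606 genes passed the test of the tissue-by-diet term as higher. The log2 fold change in adipose tissue exceeded that in heart by 1.30 for Psmb8 (SE 0.36, adjusted p = 0.0171), 1.18 for Psmb10 (SE 0.37, adjusted p = 0.0311) and 2.00 for Bst2 (SE 0.49, adjusted p = 0.00904). Psmb8 and Bst2 passed in all 27 fits that left out 1 library. Psmb10 lost the call without adipose control replicate 3 or 5, adipose HFCD replicate 2 or heart control replicate 2 (highest adjusted p = 0.0962). Without the 4 heart libraries over 50% mitochondrial, which include both with high atrial markers, the differences were 1.36, 1.18 and 1.79, and all 3 passed (highest adjusted p = 0.0190). The differences of 1.03 for Psmb9 (adjusted p = 0.100) and 0.98 for Tap1 (adjusted p = 0.0723) missed the threshold, and those of Ifit3 (-0.13), Irf7 (0.40) and Isg15 (0.63) had adjusted p from 0.463 to 0.898. For HFCD+FMD against HFCD none of the 8 differed between tissues (adjusted p from 0.694 to 0.998, 0.214% of all genes passing). Which mouse gave which library is not in the labels, so the tissues were treated as independent although some mice may have given both.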

How the data were processed

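Expression was measured by RNA sequencing of ribosome-depleted total RNA (per the labels' protocols). The labels list 34 libraries; the tables held columns for 27, and the other 7 were not analysed here (0 per-sample columns were left out). The submitters' processing notes name STAR 2.5.3, mm10, R 3.5.3, edgeR and limma; the counting program and annotation are not given in the sources used here. Deposited were unnormalized counts of reads for every gene, and log2 CPM (per a scaled library size, each count raised by 0.5). The deposited heart log2 values lack 1 term per gene shared within each of 3 library sets (recovered to within 9.8e-09), whose meaning is not stated: set A is control replicates 2, 3 and 5 and HFCD 1 to 4, set B is HFCD 5 and HFCD+FMD 2, 3 and 5, and set C is control 4 and 6 and HFCD+FMD 1.

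Each tissue was fitted separately in R 4.3.3 with edgeR 4.0.16: TMM scaling, filterByExpr on diet (15112 of 15145 genes kept in adipose tissue, 13230 of 13238 in heart), 3 diets in 1 model, the 3 sets as a factor in heart, and a two-sided quasi-likelihood F-test (robust), with Benjamini-Hochberg adjustment over all genes tested at 0.05. Intervals are 1.96 SE (95%). Tissues were compared in a joint fit with a tissue-by-diet term. Log2 CPM carries a prior count of 2. Ratios of paired subunits were compared with exact two-sided permutation tests over libraries. Exon lengths, coordinates and the 63 adipose and 72 heart symbols that only count tables held came from GENCODE M21 (GRCm38), and promoters from a RefSeq table (GRCm38.p6), which matched all 8 genes.

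The members, gene lists and comparisons were chosen with earlier results of these data known. Named genes are all 8 members, Psmb5, Psmb6, Psmb7, Psme1, Psme2, Irf9, Tap2 and B2m, up to 4 genes of each other list with the smallest p, and the 5 genes most like the members; Ifit3b was added for its likeness to Ifit3, and 1 gene of this choice is not reported here. Alternatives were RLE scaling, DESeq2 1.42.0, no count filter, no set factor, limma 3.58.1 on the log2 values as deposited, and omission of single libraries; leaving out the 4 heart libraries over 50% mitochondrial was chosen after seeing the data. The design text speaks of 18 mice, and p-values measure the spread between libraries. On simulated counts for HFCD against control the adipose fit recovered 39.5% of 200 genes changed 2-fold and 91% of those changed 4-fold, and the heart fit 68% and 97.5%. The simulation gave each gene 1 mean level over the libraries of a tissue and changed only genes with a mean CPM above 1. It held no difference in library set, mitochondrial share or atrial tissue, so these shares need not hold for the real libraries.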

Additional observations from a re-analysis of the deposited data

Results flagged for a closer look

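The 3 genes whose change on HFCD against control differed between the tissues by the tissue-by-diet test are listed here. The adipose minus heart difference in log2 fold change was 1.30 for Psmb8 (log2 fold change 0.97 in adipose tissue and -0.31 in heart), 1.18 for Psmb10 (0.58 and -0.57) and 2.00 for Bst2 (1.15 and -0.83). In heart none of these 3 changes passed on its own. Of 12 macrophage markers 9 rose in adipose tissue, where 15.7% of all genes tested rose. In heart 0 of 12 passed, but so did 0 of all 13230 genes, so that count says nothing about macrophages. The median log2 fold change of the 12 markers was 1.73 in adipose tissue and -0.09 in heart. The part of cell makeup in the difference was not tested. Every adipose control library had a higher mitochondrial share than the other adipose libraries, and HFCD replicates 3 and 5 of heart had high atrial muscle markers. Dixon's test at the 95% level, which sets the gap between the highest or lowest library and its nearest neighbour against the range of its group, passed in 0 of 40 groups of 4 to 6 libraries. The high HFCD values of Psmb8 (replicate 2), Ifit3 and Irf7 (replicate 4) in adipose tissue did not pass it.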

How the results depend on the processing

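The number of the 8 genes that passed in each diet comparison and tissue was the same with RLE scaling, DESeq2, no count filter, limma on the deposited values and, in heart, no set factor or without the 4 high-mitochondrial libraries. For all genes, DESeq2 gave 302 for adipose HFCD+FMD against HFCD (31 in edgeR), and in heart 61 for HFCD against control (0), 279 for HFCD+FMD against HFCD (14) and 145 for HFCD+FMD against control (3). The last 2 counts were 0 with limma on the deposited values, without the set factor, and without the 4 high-mitochondrial libraries. The cause was not tested.

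Leaving out 1 library at a time gave 1 to 4 passing members for adipose HFCD against control, 0 to 5 for HFCD+FMD against control, 0 for HFCD+FMD against HFCD and 0 in heart, and 2 to 4 genes differing between tissues on HFCD against control. Counts over all genes ran from 2348 to 4854, 663 to 3500 and 5 to 80 in adipose tissue in the same order. In heart they ran from 0 to 0 (HFCD against control), 0 to 368 (HFCD+FMD against HFCD) and 0 to 217 (HFCD+FMD against control).

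The signs that changed belong to differences that did not pass in edgeR. With limma on the deposited values they were Ifit3 in adipose HFCD against control (-0.011) and Bst2 in heart HFCD+FMD against control (-0.016). Without the set factor, heart HFCD+FMD against HFCD was -0.13 for Psmb8, -0.17 for Psmb9, -0.13 for Psmb10, -0.49 for Tap1, -0.057 for Bst2, -0.35 for Ifit3 and -0.20 for Isg15. HFCD+FMD against control was -0.91 for Bst2 and -0.31 for Isg15, and the difference between tissues for HFCD+FMD against HFCD was 0.063 for Psmb8, 0.21 for Psmb9, 0.28 for Psmb10, 0.51 for Tap1 and 0.15 for Bst2. Without the 4 high-mitochondrial heart libraries, Tap1 was 0.036 on HFCD against control and -0.19 for HFCD+FMD against HFCD. HFCD+FMD against control was then 0.24 for Psmb8, 0.19 for Psmb9 and 0.058 for Psmb10, and the difference between tissues for HFCD+FMD against HFCD was 0.21 for Tap1 and -0.24 for Isg15.

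With 1 library left out, log2 fold changes crossed 0 in the following ranges. In adipose HFCD against control Ifit3 ran from -0.43 to 0.43 and Irf7 from -0.11 to 0.78. In adipose HFCD+FMD against HFCD Psmb8 ran from -0.17 to 0.20, Psmb9 from -0.10 to 0.38, Tap1 from -0.11 to 0.32 and Bst2 from -0.088 to 0.38. In heart HFCD+FMD against HFCD Psmb8 ran from -0.27 to 0.73, Psmb9 from -0.078 to 0.66, Psmb10 from -0.27 to 0.83, Tap1 from -0.039 to 0.22 and Isg15 from -0.56 to 1.28. In heart HFCD+FMD against control Psmb8 ran from -0.76 to 0.24, Psmb9 from -0.54 to 0.18, Psmb10 from -1.04 to 0.058, Tap1 from -0.17 to 0.069, Bst2 from -0.12 to 0.32 and Isg15 from -0.96 to 0.87. The difference between tissues on HFCD against control ran from -0.66 to 0.19 for Ifit3 and -0.26 to 0.64 for Irf7. For HFCD+FMD against HFCD it ran from -0.81 to 0.18 for Psmb8, -0.63 to 0.14 for Psmb9, -0.69 to 0.41 for Psmb10, -0.23 to 0.20 for Tap1 and -0.29 to 1.53 for Isg15. The log2 ratio of Psmb9 to Psmb6 ran from -0.22 to 0.30 in adipose HFCD+FMD against HFCD and from -0.30 to 0.042 in heart HFCD against control.

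No paired analysis was possible because the labels give no replicate numbers that tie libraries of different diets together.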
